A study of Mus musculus with 6 samples.

Results

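Gm4724, Gm14410, Gm14305, Gm14308, Gm14295, Gm2026, Gm14434, Gm14391 and Gm6710 are 9 predicted genes of mouse chromosome 2, of 21335 genes named on the array, that the array of this study could hardly tell apart. They were chosen by the mutant minus wildtype difference itself, because 11 probe sets that name all 9 of them were lower in Brwd1 mutant oocytes. All 19 probe sets whose annotation lists at least 1 of the 9 were then taken, out of 23410 with a gene symbol and 35556 in all. The 19 held only 7 different sets of values over the 6 arrays, so 7 value patterns, and not 9 genes or 19 probe sets, are what was measured.

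The groups were Brwd1 mutant oocytes, from females homozygous for a Brwd1 mutation whose allele the labels do not describe, and wildtype oocytes. Both were of B6/C3H background and came from females 2 to 6 months old that had received 5 IU equine chorionic gonadotropin, a hormone that drives follicle growth, 44 h earlier. Each of the 3 samples per group was a pool of 100 oocytes at the germinal vesicle stage, the prophase arrest before meiosis resumes, and was read on 1 Affymetrix mouse Gene ST array. The labels do not tie pools to animals, so SDs and p-values describe the spread between these pools, which may be technical.

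C2H2 zinc-finger proteins bind DNA through tandem fingers, and in the largest mammalian family the fingers follow a KRAB domain. The KRAB domain recruits the corepressor Trim28, which brings the H3K9 methyltransferase Setdb1 and heterochromatin proteins to the bound site. Many such proteins silence retrotransposons, and Zfp57 and Zfp445 protect the methylation of imprinted genes from the oocyte and early embryo onward. Their genes lie in clusters that grow by tandem duplication, and the distal end of mouse chromosome 2 holds one of the clusters that expanded most in the mouse lineage.

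The promoter sequences show how alike the members are. Promoter windows of 300 bases, 250 before and 50 after the annotated start, were available from RefSeq (build GRCm38.p6) for all 9 genes. The windows of Gm4724, Gm14308, Gm2026 and Gm14434 were identical over all 300 bases. The other windows begin at slightly different points of the same sequence, and over the 36 pairs the aligned parts, 215 to 300 bases long, were 94.3% to 100% identical. Gm14295 was the most divergent, and the aligned 293 bases of Gm14391 and Gm6710 were identical. The sequences given are those of Gm2026 for the identical group (chr2:175965105-175965404, plus strand), Gm14391 (chr2:175206875-175207174, minus strand), the most divergent Gm14295 (chr2:176798350-176798649, plus strand) and Gm14410 (chr2:177206447-177206746, minus strand), the 1 member with probe sets of its own. They read 5′ to 3′ on the gene's strand, and the capitals mark the longest run of bases that all 9 windows share, 54 bases.
Gm2026: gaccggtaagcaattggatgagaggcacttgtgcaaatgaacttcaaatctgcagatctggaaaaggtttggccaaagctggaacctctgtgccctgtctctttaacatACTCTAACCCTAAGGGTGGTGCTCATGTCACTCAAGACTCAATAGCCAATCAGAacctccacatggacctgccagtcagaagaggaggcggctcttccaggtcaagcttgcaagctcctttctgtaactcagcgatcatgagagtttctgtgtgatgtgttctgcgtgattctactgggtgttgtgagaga
Gm14391: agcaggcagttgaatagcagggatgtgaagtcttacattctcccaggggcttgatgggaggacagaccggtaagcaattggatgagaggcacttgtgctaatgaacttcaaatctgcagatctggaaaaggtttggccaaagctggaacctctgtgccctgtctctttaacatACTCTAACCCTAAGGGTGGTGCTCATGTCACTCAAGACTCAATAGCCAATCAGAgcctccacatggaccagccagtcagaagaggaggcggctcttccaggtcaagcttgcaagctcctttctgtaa
Gm14295: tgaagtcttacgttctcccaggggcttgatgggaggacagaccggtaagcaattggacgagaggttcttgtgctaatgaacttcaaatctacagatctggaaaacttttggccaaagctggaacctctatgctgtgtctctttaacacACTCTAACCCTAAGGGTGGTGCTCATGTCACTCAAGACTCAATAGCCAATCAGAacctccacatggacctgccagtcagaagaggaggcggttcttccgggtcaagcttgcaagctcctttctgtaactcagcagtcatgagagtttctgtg
Gm14410: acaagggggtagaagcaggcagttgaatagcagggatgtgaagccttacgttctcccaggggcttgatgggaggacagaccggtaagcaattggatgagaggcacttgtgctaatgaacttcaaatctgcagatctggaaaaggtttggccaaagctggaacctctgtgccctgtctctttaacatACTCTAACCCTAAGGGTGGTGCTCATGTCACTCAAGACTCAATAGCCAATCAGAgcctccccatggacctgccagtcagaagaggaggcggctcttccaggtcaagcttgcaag

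The 54-base run was not limited to the 9 genes. Among 27025 genes with a promoter entry it occurred in 17 others, all 17 in the same stretch of chromosome 2, and 12 of these 17 are also named on probe sets that list a member. The run includes CCAAT, a motif bound by the factor NF-Y. CCAAT, searched on both strands, was in all 9 windows and in 37.4% of all 32851 promoter windows. The forward copy began between -104 and -19, counted with the start as 0, since the copies' annotated starts lie at different points of the shared sequence. A TATA motif, TATAAA, and a GC box, GGGCGG, both searched on both strands, were in 0 of the 9 windows, against 13.6% and 35.7% of all windows. A match is only a description of these letters. The windows are near copies, and the run that holds CCAAT was defined as shared by all 9. These counts are therefore not 9 separate observations.

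**Figure D1:**
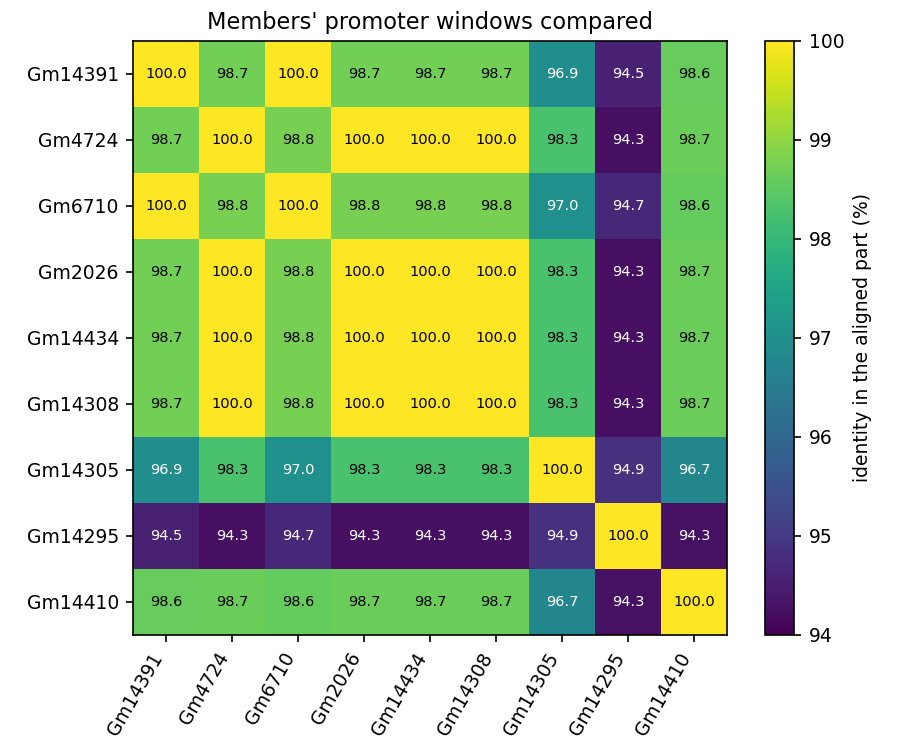
Identity between the promoter windows of the 9 genes, in percent of the aligned bases of each pair, with the genes in their order along chromosome 2. The identical windows of Gm4724, Gm2026, Gm14434 and Gm14308 stand at 100%, and Gm14295 is below 95% with every other member.

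In the RefSeq gene table all 9 members are protein-coding genes of chromosome 2. They lie among 44 annotated genes from the first member, Gm14391, to the last, Gm14410, with 4 on the plus and 5 on the minus strand. Gene lengths are 13461 bases for Gm14305, 16485 for both Gm2026 and Gm14434, 16491 for Gm14308 and 21760 for Gm14391, while Gm4724 is annotated over 286090 bases. The probe sets of the members name 16 further genes, all 16 inside the stretch that reaches 1 Mb beyond the members on both sides, and 7 of the 16 carry a Zfp name such as Zfp970, Zfp971 and Zfp931. The tables used here give no protein domain for the members, so the zinc-finger label rests on their neighbours' names.

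Each pattern is named here by the number of genes its probe sets list. One pattern lists 17 genes, 9 of them members, in 2 probe sets. A pattern of 18 genes, 8 of them members, and one of 14 genes, 2 of them members, had 1 probe set each. Exactly the 9 members are listed by 2 patterns, a brighter one in 7 probe sets and a dimmer one in 4. A 6-gene pattern with 3 members had 2 probe sets, and a pattern of Gm14410 alone also had 2. Gm14391 and Gm6710 are listed by 6 of the 7 patterns, Gm14410 by 5 and the other members by 4. Rows that repeat the symbols and all 6 values of another row are uncommon on this array, at 388 of 23410 probe sets.

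Before the members' values, 3 facts of the whole series bear on them. Brwd1 itself was 4.41, 4.56 and 4.50 in the mutant samples, against 8.91, 9.08 and 8.98 in the wildtype samples. The mutant mean differed by -4.50 with an SE of 0.071 (limma, adjusted p = 2.2e-06). On the principal component that held 19.0% of the variance, wildtype 3 lay far from the rest, so differences without it are given below. The 15 oocyte markers tested, among them Zp3, Gdf9 and Ooep, were all above the background guide of 4.48, the 95th percentile of 1212 olfactory and vomeronasal receptor probe sets, in every sample. Their mean level was 11.10 to 11.11 in the mutant and 11.07 to 11.09 in the wildtype samples. Among blood, immune and endothelial markers 12 of 13 had the higher mean in the mutant, with a mean level of 4.96 to 5.07 in the mutant and 4.81 to 4.88 in the wildtype samples, and 4 of the 13 were at or under the guide in all samples. Theca and stroma markers, at 4.21 to 4.24 in mutant and 4.12 to 4.17 in wildtype samples over 9 genes, were mostly near background, with 6 of the 9 at or under the guide in all samples. Over 14 granulosa and cumulus markers the mean was 5.06 to 5.12 in mutant and 5.02 to 5.06 in wildtype samples, with 10 of the 14 higher in the mutant. None of these 51 marker genes passed with limma. An unadjusted limma p under 0.05 was reached by 9 of the 51, against 14.7% of all probe sets. The largest marker difference was that of the immune marker C1qb, at 0.90 (limma, adjusted p = 0.162). C1qb was at 6.71, 6.92 and 7.06 in the mutant samples and at 5.74, 5.76 and 6.49 in the wildtype samples. The part of such cells in the results below was not tested.

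The 2 patterns that list exactly the 9 genes were both above background and separated by genotype. On the log2 scale, the brighter 9-gene pattern was at 8.08, 8.25 and 8.41 in mutant 1, 2 and 3 and at 9.15, 9.18 and 9.11 in wildtype 1, 2 and 3. The dimmer 9-gene pattern was at 7.17, 7.33 and 7.41 in the mutant and at 8.11, 8.33 and 8.20 in the wildtype samples. In both patterns every mutant sample was below every wildtype sample, and 0.70 separated the highest mutant from the lowest wildtype value.

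The brighter pattern averaged 8.25 ± 0.17 in mutant and 9.15 ± 0.04 in wildtype oocytes (SD, n = 3 each). The difference was -0.90 on the log2 scale (SE 0.090), a level 1.87-fold lower in the mutant. The dimmer pattern averaged 7.30 ± 0.12 in mutant and 8.21 ± 0.11 in wildtype oocytes, a difference of -0.91 (SE 0.088), 1.88-fold lower. These are the values by which the genes were chosen, so they are a description without a test. For reference, the choice rested on a limma adjusted p under 0.05, which 0.137% of the 23410 probe sets reached in either direction, 0.0982% in the lower and 0.0384% in the higher direction. The 11 probe sets of the 2 patterns stood inside it at 0.0297, and of the members' other patterns the nearest outside were the 17-gene and 14-gene patterns at 0.122, followed by 0.144 for the 18-gene pattern, 0.193 for the 6-gene pattern and 0.816 for Gm14410 alone. The passing depended on the arrays used. Without mutant 1, mutant 2, wildtype 1, wildtype 2 or wildtype 3 neither pattern passed (limma, adjusted p = 0.0553 to 0.156), and without mutant 3 the brighter pattern passed at 0.0458 and the dimmer did not at 0.0830. Counting repeated rows once gave 0.0503 for both. Since each sample is a pool of whole oocytes, fewer cells carrying these transcripts and less of them per cell cannot be told apart.

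**Figure D2:**
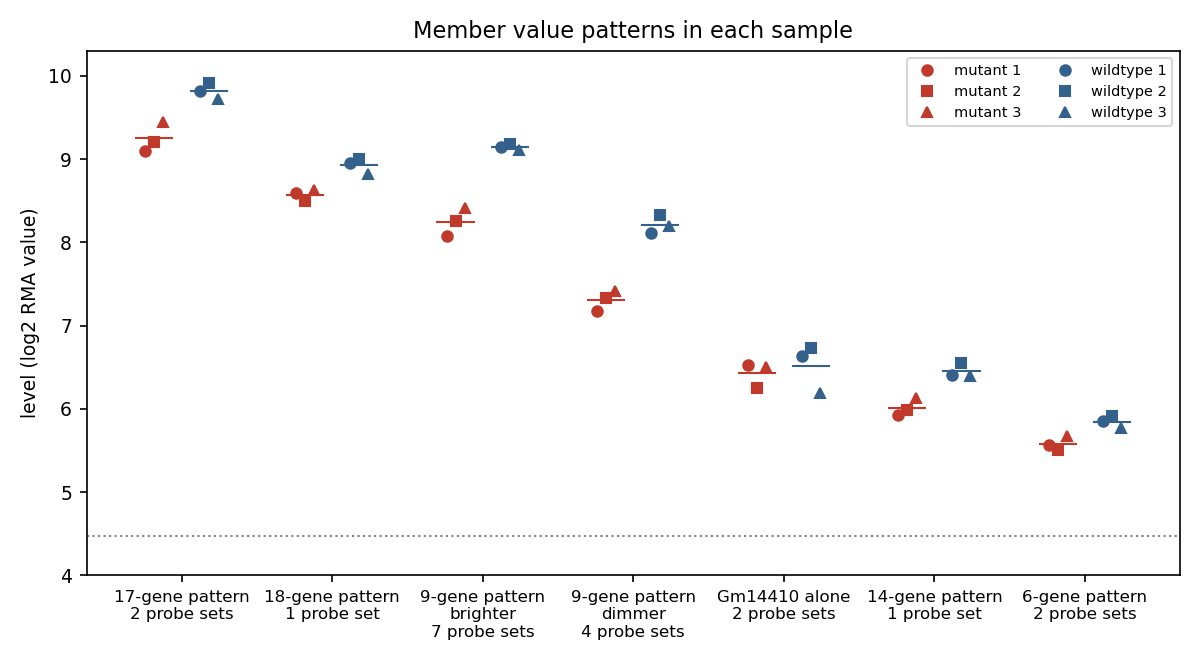
Level of each of the 7 value patterns on the log2 scale of the deposited values, with mutant samples in red left of the wildtype samples in blue. Marker shapes stand for the replicate numbers, horizontal bars the group means, and the dotted line the background guide of 4.48. The samples of the 2 genotypes are separate in 6 patterns and mixed in that of Gm14410 alone.

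The patterns that add other genes of the cluster were also lower in the mutant, by smaller amounts. The 17-gene pattern had 9.10, 9.21 and 9.44 in the mutant samples, against 9.82, 9.91 and 9.72 in the wildtype samples, a difference of -0.57 (SE 0.101). The 18-gene pattern had 8.59, 8.49 and 8.63 in the mutant samples, against 8.95, 9.0 and 8.82 in the wildtype samples, a difference of -0.35 (SE 0.072). In both, all mutant values lay under all wildtype values, with gaps of 0.28 and 0.19.

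The 14-gene pattern, which lists Gm14391 and Gm6710 beside all 7 Zfp genes named on the members' probe sets, had 5.93, 5.98 and 6.13 in the mutant samples, against 6.41, 6.55 and 6.40 in the wildtype samples, a difference of -0.44 (SE 0.077). The 6-gene pattern, which lists Gm14295, Gm14391 and Gm6710 with 3 other copies, had 5.56, 5.51 and 5.67 in the mutant samples, against 5.85, 5.91 and 5.77 in the wildtype samples, a difference of -0.26 (SE 0.069). Again the groups did not overlap, although the 6-gene pattern left a gap of only 0.10.

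The pattern of Gm14410 alone did not separate the genotypes. Its 2 probe sets had 6.53, 6.25 and 6.50 in the mutant samples, against 6.63, 6.73 and 6.19 in the wildtype samples. Wildtype 3 was the lowest of all 6 samples, and the groups overlapped. The means were 6.43 ± 0.15 in mutant and 6.52 ± 0.29 in wildtype oocytes (SD, n = 3 each), a difference of -0.09 (SE 0.152, 95% confidence interval -0.45 to 0.27). Without wildtype 2 the difference was 0.017. Gm14410 is the 1 member with probe sets that name no other gene. For the other 8 members the array gives no value of their own, so which of them differed cannot be read from these patterns.

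Across the 7 patterns, 7 were lower in the mutant mean and 6 did not overlap between groups, and the 2 patterns of exactly 9 genes were chosen for this. Of the other 5, 5 were lower and 4 did not overlap, with a median of -0.35. Over all probe sets 47.2% were lower. Non-overlap in the lower direction was seen at 9.66% of all 23410 probe sets, and in either direction at 19.7%. The patterns share genes and, where they do, may share signal, and all come from the contrast that chose the members, so nothing is read from these counts. The median over the 7 was -0.44 and over all probe sets tested 0.01. Leaving out wildtype 3 gave -0.92 for both the brighter and the dimmer 9-gene pattern, -0.62 for the 17-gene, -0.41 for the 18-gene, -0.47 for the 14-gene, -0.30 for the 6-gene pattern and -0.25 for Gm14410 alone.

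**Figure D3:**
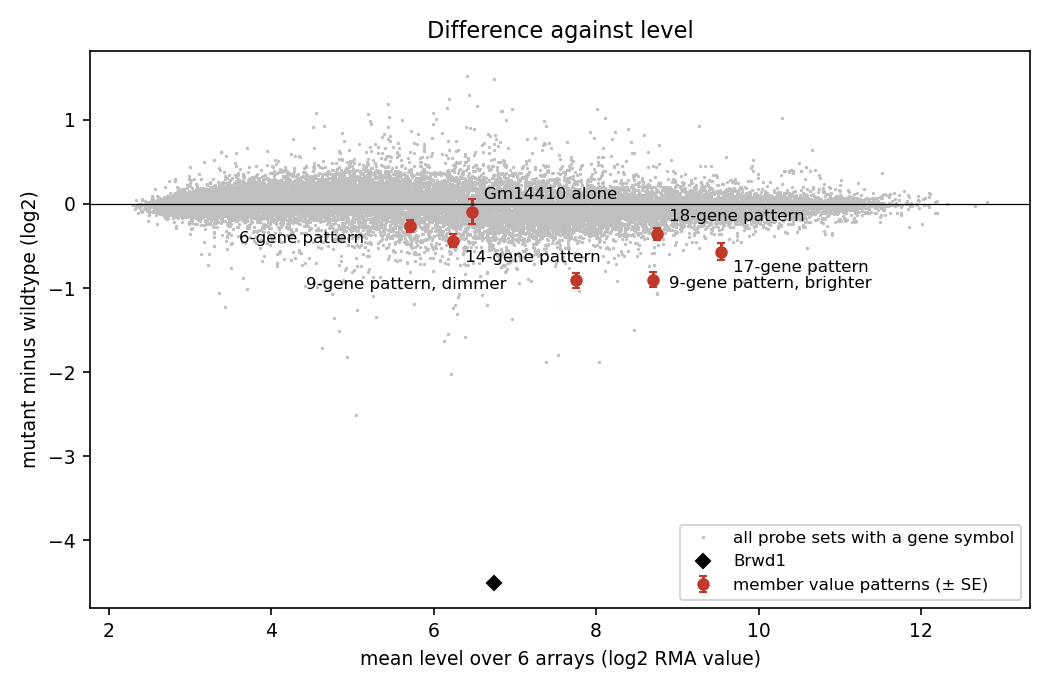
Mutant minus wildtype difference on the log2 scale against the mean level over the 6 arrays, for all 23410 probe sets with a gene symbol (grey), the 7 member patterns (red, with SE bars) and Brwd1 (black). The 2 patterns of exactly 9 genes lie at -0.90 and -0.91, low because they were chosen for this difference, and Gm14410 alone lies near 0.

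The samples also differed within a genotype in a shared way. Mutant 3 was the highest mutant sample in 6 of 7 patterns, all but Gm14410 alone. Wildtype 2 was the highest wildtype sample in all 7, and wildtype 3 the lowest in 6, all but the dimmer 9-gene pattern. These orders were not tested.

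Other genes of the same chromosome 2 stretch did not pass the test. Besides the members, 13 genes there had a probe set of their own. With limma, 0 of 13 passed at an adjusted p under 0.05, against 0.137% of all probe sets. At that share, 0 calls in so short a list say little. An unadjusted limma p under 0.05 was reached by 2 of the 13, both lower, or 15.4%, against 7.4% of all probe sets. Of the 13, 8 were lower and 5 higher, with a median of -0.10. The long noncoding gene Gm14403 was at 4.12, 3.81 and 3.90 in the mutant samples and at 4.20, 4.41 and 4.25 in the wildtype samples, all under the background guide, with a difference of -0.34 (SE 0.099; limma, adjusted p = 0.219). The zinc-finger gene Zfp971 was at 8.03, 8.06 and 8.23 in the mutant samples and at 8.49, 8.33 and 8.22 in the wildtype samples, a difference of -0.24 (SE 0.091; limma, adjusted p = 0.298), and mutant 3 lay just above wildtype 3. Zfp931, another zinc-finger gene at the far end, differed by -0.25 with a wide SE of 0.306 (limma, adjusted p = 0.741). One further probe set lists both Gm14326 and Gm14403 and no member, and it was at 7.75, 7.86 and 7.91 in the mutant samples and at 8.23, 8.14 and 7.95 in the wildtype samples, a difference of -0.27.

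Gm14403, Zfp971 and Zfp931 are the 3 of these 13 genes whose promoter window was found to resemble that of the members, with 275, 272 and 278 bases matched to the window of Gm2026. Of the other 10, 5 had a promoter entry that matched fewer than 200 bases, and 5, namely Zfp831, Phactr3, Nelfcd, Mir296 and Mir298, had no entry to compare. The 3 lay between -0.34 and -0.24, the 5 with another promoter between -0.11 and 0.14 and the 5 without an entry between -0.22 and 0.14. Gm14403 was under the background guide, and the 95% confidence interval of Zfp931 ran from -0.98 to 0.48. That grouping was made after the values were seen and was not tested. The 3 are also named on probe sets that list a member, and the other 10 are not, so promoter likeness and shared probe sets cannot be told apart. Among the 10, Nelfcd, a subunit of the complex that pauses RNA polymerase II, was at -0.22, Phactr3, a regulator of protein phosphatase 1, at -0.12, Ctsz, a lysosomal protease, at -0.11 and Atp5e, a subunit of ATP synthase, at -0.10. Tubb1, a beta tubulin, and Zfp831, which was under the guide in every sample, were both at 0.14 (limma, adjusted p = 0.369 to 0.635 for these 6 genes). Without wildtype 3, Nelfcd was at -0.06 and Tubb1 at 0.01. In the whole stretch, 29 of 57 genes with a promoter entry matched at least 200 bases of the Gm2026 window, and the next best match was 96 bases.

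**Figure D4:**
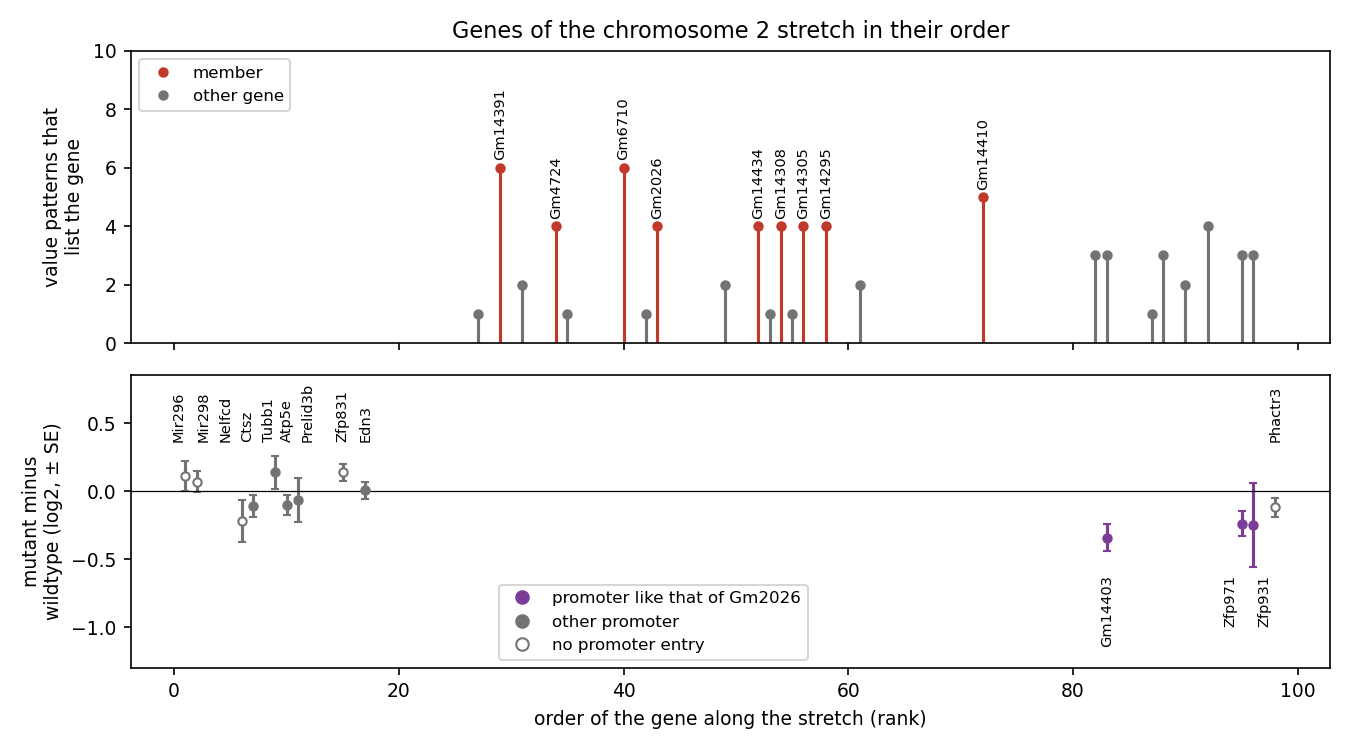
Genes of the chromosome 2 stretch by their order, with the number of value patterns that list each gene above (members in red) and the mutant minus wildtype log2 difference with SE of the 13 other genes that have a probe set of their own below. Purple marks the 3 genes with a promoter like that of Gm2026, filled grey the 5 with another promoter and open grey the 5 without a promoter entry, which could not be classed.

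Other zinc-finger genes of the genome were examined for comparison. Of 373 genes with a Zfp, Zkscan, Zscan, Zik1, Znf or Rslcan symbol outside the stretch, 2 fell and 0 rose with limma (adjusted p under 0.05), Zfp770 and Zfp560. That is 2 of 373 against 0.0982% of all probe sets in the lower direction, or 23 probe sets, 11 of them repeated rows of the 9-gene patterns. Zfp770 was at 8.31, 8.38 and 8.15 in the mutant samples and at 9.05, 9.01 and 8.99 in the wildtype samples, a difference of -0.74 (SE 0.073; limma, adjusted p = 0.0297). Zfp560 was at 7.06, 7.15 and 7.06 in the mutant samples and at 7.61, 7.78 and 7.66 in the wildtype samples, a difference of -0.59 (SE 0.067; limma, adjusted p = 0.0428). Both calls ended whenever any 1 of the 6 arrays was left out, with limma adjusted p-values of 0.0553 to 0.156 for Zfp770 and 0.0717 to 0.198 for Zfp560, at differences of -0.79 to -0.67 and -0.63 to -0.55. With repeated rows counted once both calls also ended, at limma adjusted p-values of 0.0503 for Zfp770 and 0.0594 for Zfp560.

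At an unadjusted limma p under 0.05, 56 of the 373 were lower and 15 higher, or 15.0% and 4.02%, where all probe sets gave 7.4% and 7.3%. After median centring of the arrays the split was 87 lower and 5 higher, and without wildtype 3 it was 50 and 23. Centring also moved the median over all probe sets from 0.01 to -0.05. The shares of all probe sets in these settings are not given, so these splits have no background beside them. In the main fit the median difference of the 373 was small, at -0.03 against 0.01 over all probe sets, with 226 lower and 147 higher. Of the 373, 90 were at or under the background guide in all samples and 249 above it in all. Among the 214 above the median level the median was -0.06, against -0.03 over all probe sets kept there. Next in rank was Zfp991, which was at 4.44, 4.22 and 4.63 in the mutant samples and at 5.63, 6.04 and 5.41 in the wildtype samples, a difference of -1.26 (SE 0.175; limma, adjusted p = 0.0812). Its mutant mean of 4.43 lies under the background guide. Zfp946 differed by -0.51 (SE 0.071; limma, adjusted p = 0.0814). On the higher side, Zfp469 differed by 0.50 and Zfp800, which was under the guide in every sample, by 0.25 (limma, adjusted p = 0.170 and 0.152).

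Other zinc-finger copies also share probe sets. Outside the members, 253 patterns list at least 6 genes, with a median difference of 0.02, and 32 of them were lower and 17 higher without overlap. Their median level was 4.06, under the background guide of 4.48, against 8.76 for the 8 with a named zinc-finger gene. The 253 are therefore a weak comparison for brighter patterns. Over all probe sets, non-overlap was seen at 9.66% in the lower direction and at 19.7% in either direction. Among the 8 that include a named zinc-finger gene, 5 come from chromosome 4 and 3 from chromosome 7. Of the 5 on chromosome 4, among them patterns with Zfp990, Zfp534 and Rex2, 4 were at -0.60 to -0.54 with mutant below wildtype in every pairing of samples, and 1 was at -0.003. Those 4 all name Zfp534, so they may share signal and are not 4 separate results. The 3 on chromosome 7 were at -0.35 for the pattern with Zfp114 and at 0.01 and 0.03 for those with Zfp850. In the pattern with Zfp114 the groups did not overlap either, and in those with Zfp850 they did. No gene outside chromosome 2 had the 54-base run. This comparison was chosen after the values were seen and carries no test.

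The corepressors and other silencing partners of KRAB zinc-finger proteins did not pass the test in either direction. Trim28, the corepressor itself, was at 8.65, 8.83 and 8.83 in the mutant samples and at 8.77, 8.78 and 8.74 in the wildtype samples, a difference of 0.007 (SE 0.069; limma, adjusted p = 0.972), whose sign changed in other settings. Setdb1 was at 9.47, 9.51 and 9.50 in the mutant samples and at 9.51, 9.60 and 9.60 in the wildtype samples, a difference of -0.08 (SE 0.056; limma, adjusted p = 0.567). Of 26 partners measured, 15 were lower and 11 higher. These 26 include the KRAB zinc-finger gene Zfp57, which is also among the 373 and the known-target genes below. With limma 0 of 26 passed, against 0.137% of all probe sets, a share at which 0 calls say little. An unadjusted limma p under 0.05 was reached by 1 in each direction, or 3.85%, against 7.4% of all probe sets lower and 7.3% higher. The median was -0.04. The lowest p-values belonged to Mta2, a subunit of the NuRD complex, at 0.46 but near background, to the modifier Sumo2 at -0.16, to the deacetylase Hdac1 at 0.26 and to the H3K9 methyltransferase Suv39h2 at -0.12 (limma, adjusted p = 0.291 to 0.380).

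Of 10 zinc-finger genes with a known target, all 10 of which are also among the 373, 7 were lower and 3 higher, with a median of -0.06. With limma 0 of 10 passed, against 0.137% of all probe sets, a share at which 0 calls say little. An unadjusted limma p under 0.05 was reached by 2 of the 10, both lower, or 20%, against 7.4% of all probe sets. Zfp809, which silences proviruses of murine leukaemia virus, was at 5.85, 5.70 and 5.75 in the mutant samples and at 6.13, 6.11 and 6.13 in the wildtype samples, a difference of -0.36 (SE 0.061; limma, adjusted p = 0.122). Zfp708, which binds a retrotransposon repeat, differed by -0.57 (SE 0.127; limma, adjusted p = 0.155), and its groups did not overlap. Zfp961 differed by -0.30 with wildtype 2 far above the rest at 9.0, and by -0.003 without that sample. Zfp819, near background at 3.86 to 4.49, differed by 0.21 (limma, adjusted p = 0.619 for Zfp961 and 0.540 for Zfp819). The other 2 higher genes, Rslcan18 and Zfp30, were under the background guide in every sample, as was Zfp42 among the lower genes. Zfp57, the imprint guardian, was at 11.64 to 11.70 in the mutant and 11.68 to 11.69 in the wildtype samples.

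**Figure D5:**
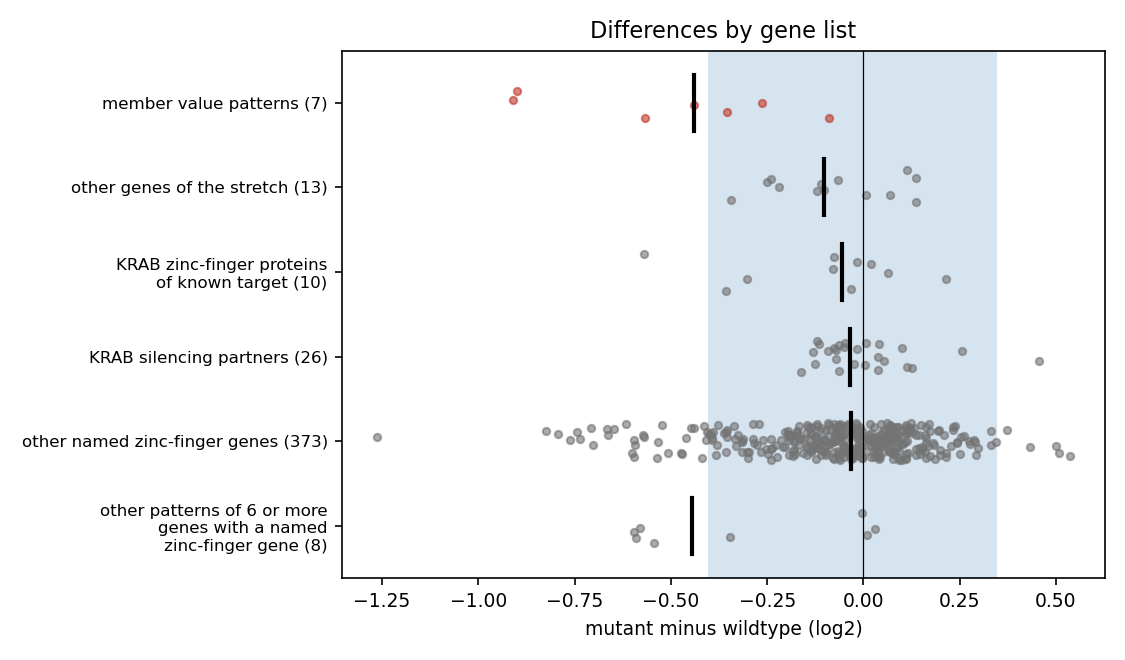
Mutant minus wildtype log2 differences of the 7 member patterns (red) and of the gene lists set beside them (grey), 1 point per pattern or gene, with the median as a black bar. The shaded band is the middle 95% of all 23410 probe sets, -0.40 to 0.34. The band describes single probe sets and not medians, and the 2 lowest member patterns, at -0.91 and -0.90, are those that chose the members.

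Genes with a probe set of their own whose levels followed the mean of the 7 patterns most closely were sought among 13893 probe sets whose mean over all 6 arrays was above the background guide. By Pearson's r over the 6 arrays, given as a description because the arrays fall into 2 genotypes, the 6 closest were Tfb1m at 0.994, Rapgef1 and Ldb1 at 0.992, Aamdc at 0.991, Zfp991 at 0.990 and Eps15l1 at 0.989. Tfb1m, a methyltransferase of mitochondrial ribosomal RNA, was at 8.36, 8.42 and 8.50 in the mutant samples and at 8.75, 8.79 and 8.66 in the wildtype samples. Its order within genotypes, with mutant 3 highest, wildtype 2 highest and wildtype 3 lowest, is that of most member patterns. A gene picked by r over these same arrays tends to share that order, so nothing is read from the match. The differences were -0.31 for Tfb1m, -0.35 for Rapgef1, an exchange factor for the GTPase Rap1, -0.24 for Ldb1, a cofactor of LIM-domain factors, and -0.22 for Eps15l1, an endocytic adaptor (limma, adjusted p = 0.132 to 0.211). Aamdc had -1.10 and passed over all arrays (limma, adjusted p = 0.0297), but not when any 1 array was left out, with limma adjusted p-values of 0.0502 to 0.156 and differences of -1.18 to -1.02. Zfp991, whose mutant mean of 4.43 lies under the guide, was compared only because its wildtype level raised its mean.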

How the data were processed

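Deposited values of 6 arrays were used. They are log2 values, made per the submitters' processing notes with Affymetrix Expression Console 1.1 and RMA, which equalises the arrays' distributions, so a change in total RNA per oocyte cannot be seen. No source used here gives the genome build of the array annotation. Symbols were those of the array annotation, and gene order, lengths and promoters came from RefSeq (GRCm38.p6).

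Differences (mutant minus wildtype) were fitted with limma 3.58.1 in R 4.3.3 (lmFit, eBayes, two-sided) on all 23410 probe sets with a symbol, without covariates or a level filter, and adjusted by Benjamini-Hochberg over all of them at 0.05. The procedure was tested on simulated data. Lists used each gene's brightest single-symbol probe set. Promoters were aligned locally with Biopython 1.88 (match 2, mismatch -3, gap opening -5, extension -2). The genes named were Brwd1, every pattern, all calls or the lowest p-values of each list, Trim28, Setdb1 and the 6 genes most correlated with the members. C1qb, Rslcan18, Zfp30, Zfp42, Zfp57, Zfp931 and the multi-gene patterns elsewhere were added after their values were seen. Members and lists were chosen with earlier results of these data known. The number of arrays limits precision. Alternatives were a replicate block, a level filter, 3 normalizations, eBayes and weight settings, other probe set choices and omission of each array.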

Additional observations from a re-analysis of the deposited data

How the results depend on the processing

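The 7 member patterns moved by less than the spread between replicates in all 13 alternatives, and Gm14410 alone changed sign, to 0.017 without wildtype 2. Most of these outcomes were fixed in advance. The replicate block, the level filter and the eBayes settings leave a difference as it is. Omitting 1 of the 3 arrays of a group cannot move it by more than that spread. Only the normalizations and the array weights could have. Without 1 array the difference of Gm14410 alone ran from -0.25 to 0.017, that of the brighter 9-gene pattern from -0.98 to -0.82 and of the dimmer from -0.96 to -0.84. Whether the 9-gene patterns passed was not stable. The number of probe sets called was 32, and it was 1 with the replicate block, with all 35556 probe sets or with repeated rows counted once, 76 with trend and robust settings, and 1 to 18 without 1 array (18 without wildtype 3, 10 without mutant 3, 3 without mutant 2, otherwise 1). None of the 11 probe sets was called in these, except with trend and robust settings (all 11, and 2 others that list members) and without mutant 3 (the 7 brighter, at a limma adjusted p of 0.0458). After median centring, which moved the median over all probe sets from 0.01 to -0.05, the called probe sets split into 30 lower and 6 higher, against 23 and 9. With repeated rows counted once the 9-gene patterns were at an adjusted p of 0.0503, since fewer equal p-values enter the adjustment. The median of the known-target list was -0.19 among probe sets above the median level, where fewer genes remain. The difference of Trim28 was -0.05 after median centring and ran from -0.023 to 0.067 without 1 array, below 0 without mutant 2, mutant 3 or wildtype 3 (-0.005). Of the other named genes, Zfp991 passed with trend and robust settings, and the calls of Zfp770, Zfp560 and Aamdc ended with the replicate block, with all probe sets and with repeated rows counted once, that of Zfp560 also after quantile normalization (limma adjusted p 0.0726) and cyclic loess (0.0502). Same-numbered samples did not deviate together (r = -0.0015, -0.031 and 0.037), so the replicate block, which gave 1 call, shares only a number.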
